A study of Homo sapiens with 12 samples.

Results

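Tumor cells can hold back an immune attack through ligands on their surface and through the adenosine that they make outside the cell. Transcript levels of 9 genes of these routes were measured in MDA-MB-231 cells, an established mesenchymal line from a triple-negative breast cancer. The genes were taken by their symbols from the 60664 genes of the count table, and all 9 were found. They are the PD-1 ligands CD274 and PDCD1LG2, the B7 family member CD276, the macrophage signal CD47, the BTLA ligand TNFRSF14, the galectin LGALS9, the ectonucleotidase NT5E, the adenosine receptor ADORA2B and the lymphocyte receptor CTLA4.

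The data were 12 RNA-seq libraries with 4 in each of 3 groups. WT cells in normoxia and WT cells held at 1% O2 for 24 hr had the unmodified genotype. CCAR2 KO cells, which were cut with LentiCRISPR in the gene for DBC1, were kept in normoxia, and no KO cells in hypoxia were analysed here. The methods do not say whether the KO cells were 1 clone or a pool, and they name triplicates for the extraction and 2 biological replicates for the test, where the labels list 4 libraries a group. Whether these 4 came from separate cultures is not stated, so p-values measure the spread between libraries, which may be technical. The study compared these groups to learn what hypoxia and the loss of CCAR2 each do to transcription.

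PD-L1, the product of CD274, and PD-L2, the product of PDCD1LG2, bind PD-1 on T cells and dampen their activation, and interferon-gamma acting through JAK kinases and IRF1 is a well known inducer of CD274. CD47 binds SIRPA on macrophages as a signal against engulfment, TNFRSF14 binds BTLA and CD160 on lymphocytes, and galectin-9, the product of LGALS9, binds HAVCR2 (TIM-3). In the adenosine route, the ectonucleotidase ENTPD1 turns extracellular ATP into AMP, CD73, the product of NT5E, turns AMP into adenosine, and receptors such as ADORA2B pass the signal into the cell. CTLA4 is a receptor of T cells that takes CD80 and CD86 from CD28. In hypoxic cells, HIF1α and its partner bind DNA at the core sequences ACGTG and GCGTG, and NT5E, ADORA2B, CD47 and CD274 have been described as HIF targets in other cells.

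The 250 bases before the RefSeq start of each gene (GRCh38.p14) were searched for these cores and for interferon elements, since these are the letters that hypoxia and interferon factors are known to read. A window was found for 8 of the 9 genes and not for PDCD1LG2. CD274 is shown because it is the PD-1 ligand with the highest level here and its window held interferon elements. CD47 is shown because its window held hypoxia cores, and CTLA4 because it alone of the 9 genes was called under hypoxia. Each line runs 5′ to 3′ on the strand of the gene, with matches in capitals.
CD274, chr9:5450292-5450502, plus strand, ending where the gene begins in GENCODE: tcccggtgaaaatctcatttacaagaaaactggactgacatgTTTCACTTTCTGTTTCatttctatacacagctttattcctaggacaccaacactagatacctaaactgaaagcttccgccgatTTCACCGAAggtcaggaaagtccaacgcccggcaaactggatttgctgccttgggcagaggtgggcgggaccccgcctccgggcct
CD47, chr3:108091032-108091281, minus strand, inside an intron of the longest GENCODE gene model: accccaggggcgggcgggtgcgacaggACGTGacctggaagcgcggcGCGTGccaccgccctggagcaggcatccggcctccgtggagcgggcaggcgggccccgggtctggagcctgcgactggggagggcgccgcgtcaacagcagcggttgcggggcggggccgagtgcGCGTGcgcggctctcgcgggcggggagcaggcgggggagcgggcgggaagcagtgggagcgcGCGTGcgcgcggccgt
CTLA4, chr2:203867521-203867770, plus strand, upstream of the gene: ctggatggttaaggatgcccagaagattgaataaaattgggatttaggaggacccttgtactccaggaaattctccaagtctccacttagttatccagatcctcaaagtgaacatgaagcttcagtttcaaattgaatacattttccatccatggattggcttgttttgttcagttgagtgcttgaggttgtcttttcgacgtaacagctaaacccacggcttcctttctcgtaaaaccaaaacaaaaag

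The capitals in CD274 mark 2 overlapping matches of the interferon-stimulated element (GAAA, any 2 bases, GAAA), read on the minus strand, at 208 and 202 bases before the start, and 1 match of the gamma-interferon activation site TTCNNNGAA at 125 bases. Over 27305 promoter windows of this length, 3.07% held the first motif and 6.78% the second on either strand. The capitals in CD47 mark ACGTG at 223 bases and GCGTG at 203, 78 and 16 bases before the start. ACGTG was present in 18.7% of all windows, GCGTG in 31.9% and either core in 43.1%. ADORA2B held GCGTG at 229 bases. The windows of CTLA4, NT5E, CD276, TNFRSF14 and LGALS9 held none of the 4 motifs. Except for CTLA4, these windows lie wholly inside the gene as GENCODE draws it. Exons of the gene itself cover 250 bases of the NT5E and LGALS9 windows, 170 of CD276 and 146 of TNFRSF14. Sequence before the GENCODE starts of these genes was therefore not searched. In the ADORA2B window, 213 bases lie in its own exons. The CD47 and CD276 windows were rich in G and C (79.6% and 80.8%), as were those of NT5E and ADORA2B (75.2% each), whereas CTLA4 had 40.4%, against a median of 58.0% over all windows.

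The table holds whole-number estimated counts per gene, whose sums ran from 153904088 to 213743693 in WT normoxia, from 76384973 to 195621872 in WT hypoxia and from 68599412 to 152328450 in CCAR2 KO. CCAR2 was at 144 to 151 CPM (counts scaled to a common library sum) in WT normoxia, at 143 to 154 in WT hypoxia and at 54.7 to 61.3 in CCAR2 KO, which in KO cells is a log2 fold change of -1.34 (standard error 0.0423, edgeR adjusted p = 2.14e-09). Transcript of the targeted gene was therefore lower in every KO library and still present. Per the study's methods, the edited regions were sequenced and the protein's loss was checked by Western blotting. The hypoxia targets CA9, NDRG1, VEGFA and SLC2A1 were called higher under hypoxia, with log2 fold changes of 6.21, 2.60, 1.08 and 0.62, and VEGFA also in KO cells (0.86). Of the line's markers, VIM, CD44, EGFR, AXL and CAV1 were high (VIM 5100 CPM in WT normoxia), ESR1, PGR and CDH1 were near 0, and ERBB2 (91.0 CPM) and EPCAM (14.4 CPM) were not absent. The 19 markers of lymphocytes and myeloid cells summed to 3.50 to 4.09 CPM in WT normoxia, 3.87 to 4.83 in WT hypoxia and 3.92 to 5.88 in CCAR2 KO. CD8A made up most of these sums, while CD2 and MS4A1 were at 0 in all 12 libraries and CD3E reached at most 0.0405 CPM.

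Within WT normoxia the 9 genes spanned a wide range in level per length, given as CPM per kilobase of GENCODE exons. NT5E stood at 193 ± 7.18 (SD, n = 4), ADORA2B at 31.9 ± 0.737 and CD274 at 12.2 ± 0.711, followed by CD47 at 11.2, CD276 at 9.50, TNFRSF14 at 0.602, PDCD1LG2 at 0.451, LGALS9 at 0.153 and CTLA4 at 0.0828. No neighbours in this order overlapped between libraries. On this scale the producer and the receptor of adenosine thus stood above the checkpoint ligands among the 9 genes. Without division by length, CD47 (mean 92.2 CPM) stood above ADORA2B (81.4 CPM). Under hypoxia the order was the same except that CD47 (11.3) and CD274 (11.1) overlapped, as did CTLA4 (0.199) and LGALS9 (0.184). In CCAR2 KO, CD276 (13.3) and CD47 (13.0) overlapped with each other and both stood above CD274 at 9.08.

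**Figure D1:**
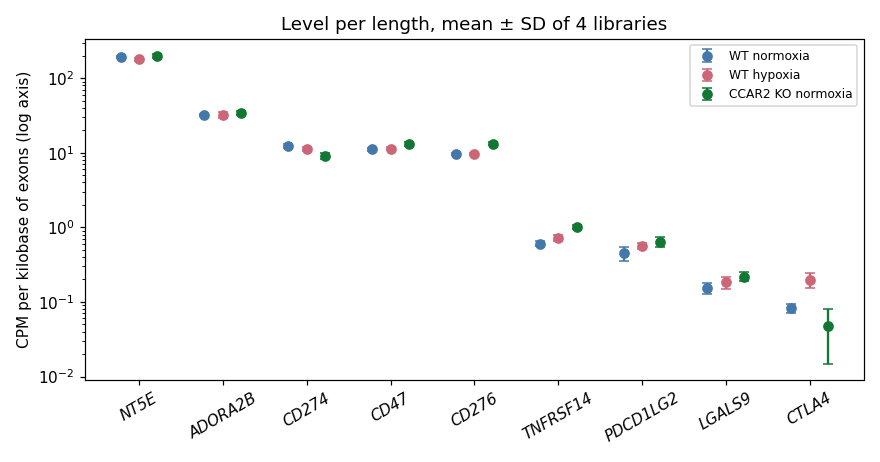
Level of each gene as CPM per kilobase of exons on a log axis, as the mean with the SD of 4 libraries in each group. NT5E and ADORA2B lie highest in every group, CD274 lies below CD47 and CD276 in CCAR2 KO, and CTLA4 and LGALS9 lie lowest.

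Groups were compared across all genes with edgeR's quasi-likelihood test and Benjamini-Hochberg adjustment, and calls needed an adjusted p under 0.05 with a log2 fold change of 0.5 or more in either direction. Under hypoxia, 1 of the 9 genes was called higher (CTLA4) and 0 lower, against 5.83% and 1.43% (7.26% in all) of the 21776 genes tested. For CCAR2 KO the calls were 2 higher (TNFRSF14 and LGALS9) and 0 lower, against 6.73% and 2.94% (9.67% in all) of 21410 genes. Between CCAR2 KO and WT hypoxia, 0 were higher and 1 was lower in KO cells (CTLA4), against 7.08% and 7.88% (15% in all) of 21158 genes. By the adjusted p alone, 4 genes were higher in KO cells (CD276, CD47, TNFRSF14 and LGALS9) and 1 lower (CD274), where 14.9% and 15.4% of all genes tested were. Under hypoxia these counts were 1 and 0, where 11.6% and 12% of all genes were. Where edgeR called 0 of the 9, DESeq2 and limma-voom also called 0, and the counts at an unadjusted p under 0.05 were 2 lower under hypoxia, 1 lower in KO cells and 4 higher in KO than in hypoxic WT cells. The median log2 fold change of the 9 genes was 0.023 under hypoxia and 0.21 in KO cells, and that of all genes tested was 0.011 and 0.0090. Both contrasts use the same WT normoxia libraries, so their values are given side by side and no likeness between them is drawn.

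**Figure D2:**
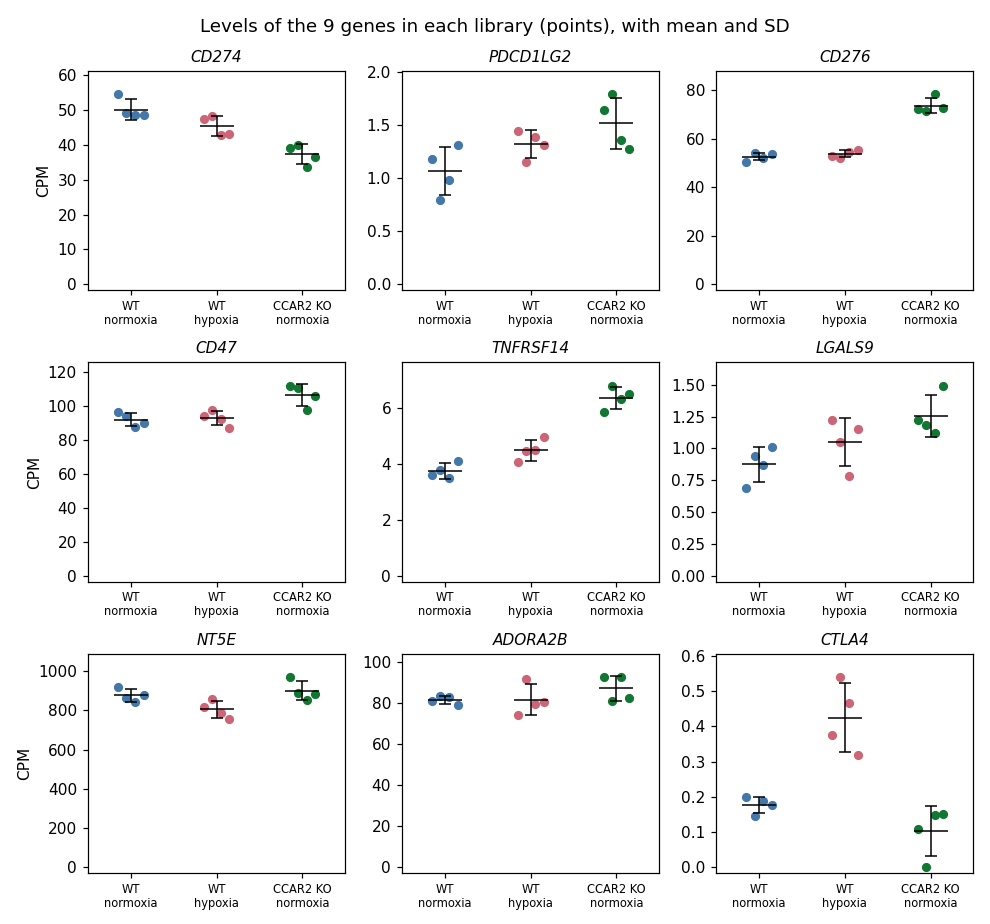
CPM of the 9 genes in each of the 12 libraries (points) with the mean and SD of the 4 libraries of a group; each panel has its own linear axis that includes 0. The 4 CCAR2 KO libraries are the lowest for CD274 and the highest for CD276 and TNFRSF14, whereas CTLA4 stands highest in the 4 hypoxic libraries.

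CD274 (ENSG00000120217, chromosome 9, 5450503 to 5470566, plus strand of GRCh38) was lower in every KO library than in every WT library and was not called under hypoxia. Its levels in WT normoxia were 54.4, 49.0, 48.5 and 48.4 CPM, in WT hypoxia 47.3, 48.2, 42.8 and 43.2 CPM, and in CCAR2 KO 39.2, 40.0, 33.6 and 36.4 CPM. The 3 groups did not overlap, with normoxic WT cells highest and KO cells lowest. KO cells had a log2 fold change of -0.43 with a standard error of 0.0635 (edgeR adjusted p = 0.000293), which is 0.744 of the WT normoxia level and short of the 0.5 needed for a call. In KO cells 15.2% of all genes tested were lower without overlap. Under hypoxia it was -0.15 (standard error 0.0619, edgeR adjusted p = 0.108), although the libraries did not overlap, as was so for 12.7% of all genes in that direction. The direct comparison of KO cells with hypoxic WT cells gave -0.29 (standard error 0.0675, edgeR adjusted p = 0.00603). WT normoxia replicate 1 lay above the other 3 libraries of its group, and without it the value in KO cells was -0.39 (edgeR adjusted p = 0.00062) and that under hypoxia -0.11 (edgeR adjusted p = 0.238). Without WT hypoxia replicate 2 the hypoxic value was -0.18 and passed the adjusted p (edgeR adjusted p = 0.0347), still short of the fold needed for a call.

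The other PD-1 ligand lies next to CD274. PDCD1LG2 (ENSG00000197646, chromosome 9, 5510570 to 5571254, plus strand) was weakly expressed, at 1.18, 0.792, 0.987 and 1.31 CPM in WT normoxia, 1.45, 1.15, 1.39 and 1.31 CPM in WT hypoxia and 1.64, 1.79, 1.36 and 1.28 CPM in CCAR2 KO. All 3 groups overlapped. Its log2 fold change in KO cells was 0.51 (standard error 0.188, edgeR adjusted p = 0.0619) and under hypoxia 0.31 (standard error 0.185, edgeR adjusted p = 0.273), neither of which was called. In KO cells the pair of neighbouring ligands therefore had estimates of opposite sign, of which that of CD274 alone passed the adjusted p. The PDCD1LG2 call depended on the setting, since DESeq2 gave an adjusted p of 0.0437 and edgeR without WT normoxia replicate 4 one of 0.0395. PD-1 itself (PDCD1) was at most 0.0426 CPM in any library.

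Genes that regulate PD-L1 were read beside it from a list of 25, all of which were tested. In KO cells 2 were called higher and 0 lower by edgeR, DESeq2 and limma-voom alike (5 lower at an unadjusted p under 0.05), which is 8% of the list against 9.67% of all genes, and the median log2 fold change was 0.028. IRF1, the interferon-responsive activator of CD274, was at 13.4 to 16.0 CPM in WT normoxia and 21.9 to 22.2 CPM in CCAR2 KO and was called higher, at a log2 fold change of 0.58 (standard error 0.0631, edgeR adjusted p = 2.65e-05). HIF1A, which encodes HIF1α, was also called higher in KO cells (0.65) and lower under hypoxia (-1.31). CD274 was lower in the KO libraries in which IRF1 was higher, and a link between them was not tested. Under hypoxia 1 gene of the list was called higher and 2 lower (12% against 7.26% of all genes), with a list median of -0.12: IRF9, an interferon regulatory factor, rose (0.71), and JAK2, a kinase of the interferon-gamma receptor, fell (-0.55) beside HIF1A. Without WT normoxia replicate 1 the list had 0 genes called higher under hypoxia, and without WT hypoxia replicate 4 it had 1 called lower. CMTM6, which keeps PD-L1 from being degraded, was at 146 ± 6.46 CPM in WT normoxia, 114 ± 15 in WT hypoxia and 162 ± 12.8 in CCAR2 KO (SD, n = 4), and it was called between the last 2 groups only (0.50).

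Of the 16 genes around the PD-1 ligands on 9p24 that are in the table, 13 were tested under hypoxia and 14 in KO cells, and in each of these comparisons 1 was called higher and 1 lower (15.4% against 7.26% of all genes under hypoxia, 14.3% against 9.67% in KO cells). PLGRKT, the plasminogen receptor gene beside CD274, fell in KO cells (-0.50, standard error 0.0958, edgeR adjusted p = 0.00175). SLC1A1, a glutamate transporter gene, rose both under hypoxia (1.05) and in KO cells (0.77). JAK2, also in this region, was the gene that fell under hypoxia. The median of these neighbours in KO cells was 0.096, and 10 of the 14 had estimates above 0, against -0.43 for CD274. The PLGRKT call was lost without WT normoxia replicates 2 or 3 or CCAR2 KO replicates 1 or 3, and the JAK2 call without WT hypoxia replicate 4, each leaving 0 genes of the list called lower.

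CD276 (ENSG00000103855, chromosome 15, 73683966 to 73714518, plus strand) encodes B7-H3, a member of the B7 family whose receptor is debated. It was at 50.6, 54.1, 52.1 and 53.7 CPM in WT normoxia and at 53.0, 52.1, 54.5 and 55.5 CPM in WT hypoxia, and these groups overlapped. In CCAR2 KO it was at 72.2, 71.3, 78.2 and 72.5 CPM, above every WT library, where 15.6% of all genes tested were above WT normoxia without overlap. In KO cells its log2 fold change was 0.48 (standard error 0.0430, edgeR adjusted p = 4.9e-06), a level 1.40 times that of WT normoxia and just short of a call. With upper-quartile normalization it was 0.50 and was called. Under hypoxia it was 0.023 (standard error 0.0471, edgeR adjusted p = 0.782). KO cells were also above hypoxic WT cells, by 0.45 on the log2 scale (edgeR adjusted p = 3.23e-05). Of the B7 family ligands among the 9 genes, CD276 was thus higher and CD274 lower than WT normoxia in every KO library, while the KO libraries of PDCD1LG2 overlapped with it.

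CD47 (ENSG00000196776, chromosome 3, 108043094 to 108091862, minus strand) had a small difference in KO cells. Its levels were 96.8, 94.1, 87.8 and 90.1 CPM in WT normoxia, 94.3, 98.0, 92.6 and 87.5 CPM in WT hypoxia, and 112, 111, 98.0 and 106 CPM in CCAR2 KO. The lowest KO library lay just above the highest normoxic one, and 15.6% of all genes tested were likewise higher without overlap. The WT groups covered the same range. The log2 fold change was 0.21 in KO cells (standard error 0.0506, edgeR adjusted p = 0.00667), a level 1.16 times that of WT normoxia, and 0.0066 under hypoxia (standard error 0.0541, edgeR adjusted p = 0.950). The window printed above held matches of the hypoxia core, and no hypoxic difference of CD47 was detected at 24 hr. No GENCODE transcript of CD47 held the bases just after that RefSeq start, and whether these matches act here was not tested.

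A list of 12 partners of CD47 and of the galectins, which leaves out the receptor SIRPA, had 2 of 9 tested genes called higher in KO cells and 1 of 9 under hypoxia (22.2% and 11.1%, against 9.67% and 7.26% of all genes), with 0 called lower in either by edgeR, DESeq2 or limma-voom (2 in KO cells and 1 under hypoxia at an unadjusted p under 0.05). THBS1, the secreted ligand thrombospondin-1 of CD47, rose from 302 to 318 CPM in WT normoxia to 596 to 648 CPM in CCAR2 KO, at a log2 fold change of 0.99 (standard error 0.0407, edgeR adjusted p = 1.36e-08), and was not called under hypoxia (-0.10). ITGB3, the beta subunit of the integrin that associates with CD47, rose in both, by 1.17 under hypoxia and 0.99 in KO cells on the log2 scale. QPCTL, the enzyme that modifies CD47 for SIRPA binding, was at 22.9 to 26.6 CPM in WT normoxia and 18.9 to 22.4 CPM in CCAR2 KO and was not called. SIRPA, the macrophage receptor of CD47, was counted with the other receptors and was at 0.389 to 0.987 CPM in WT normoxia and 0.175 to 0.412 CPM in CCAR2 KO. It was called lower in KO cells by edgeR (-0.97, adjusted p = 0.0483) but not by limma-voom, with overlapping libraries, and 0 receptors were called lower without WT normoxia replicates 2, 3 or 4 or CCAR2 KO replicates 2, 3 or 4.

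TNFRSF14 (ENSG00000157873, chromosome 1, 2555639 to 2565382, plus strand) encodes HVEM, which gives an inhibitory signal through BTLA and CD160 and an activating one through TNFSF14 (LIGHT). It had the clearest call among the 9 genes. Its levels were 3.60, 3.78, 3.49 and 4.12 CPM in WT normoxia, 4.06, 4.46, 4.49 and 4.98 CPM in WT hypoxia, and 5.85, 6.79, 6.31 and 6.49 CPM in CCAR2 KO. Every KO library was above every WT library, where 15.6% of all genes tested were above WT normoxia without overlap. The WT groups overlapped by their highest and lowest libraries. The log2 fold change in KO cells was 0.76 (standard error 0.0937, edgeR adjusted p = 6.91e-05), a level 1.70 times that of WT normoxia, and it stayed between 0.72 and 0.81 with any 1 library left out. Under hypoxia it was 0.26 (standard error 0.105, edgeR adjusted p = 0.103). Against hypoxic WT cells, KO cells were higher by 0.49 on the log2 scale (edgeR adjusted p = 0.0031), which became a call without WT hypoxia replicate 4 (0.55) or CCAR2 KO replicate 1 (0.53). An antisense gene, TNFRSF14-AS1, covers 13.4% of its exon bases and was at 0.0970 CPM on average, and without strand the reads of the pair cannot be told apart. BTLA and TNFSF14 reached at most 0.142 and 0.130 CPM, and CD160 at most 0.704 CPM.

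LGALS9 (ENSG00000168961, chromosome 17, 27629798 to 27649560, plus strand) was low in all groups. It was at 0.689, 0.937, 0.867 and 1.01 CPM in WT normoxia, 1.22, 1.05, 0.785 and 1.15 CPM in WT hypoxia, and 1.22, 1.18, 1.12 and 1.49 CPM in CCAR2 KO. Each KO library was above each normoxic library, as was so for 15.6% of all genes tested, while the hypoxic libraries overlapped with both. Its log2 fold change in KO cells was 0.51 (standard error 0.174, edgeR adjusted p = 0.0417), just past both thresholds, and under hypoxia 0.25 (standard error 0.198, edgeR adjusted p = 0.414). This call was lost on leaving out any of 6 of the 8 libraries, with edgeR adjusted p of 0.102, 0.0687 and 0.0959 without WT normoxia replicates 1, 2 and 3, and of 0.0724, 0.0574 and 0.134 without CCAR2 KO replicates 1, 2 and 4. Its near-identical copies LGALS9B and LGALS9C, with which it could share reads, were at most 0.155 CPM in any library. The galectin-9 receptor HAVCR2 reached at most 0.0868 CPM.

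NT5E (ENSG00000135318, chromosome 6, 85449584 to 85495791, plus strand) was the most abundant of the 9 transcripts and differed little. It was at 919, 865, 842 and 876 CPM in WT normoxia, 817, 860, 788 and 756 CPM in WT hypoxia, and 967, 889, 854 and 884 CPM in CCAR2 KO. Libraries of all groups overlapped, with the hypoxic ones toward the low end. Its log2 fold change under hypoxia was -0.13 (standard error 0.0571, edgeR adjusted p = 0.134) and in KO cells 0.037 (standard error 0.0488, edgeR adjusted p = 0.625). The gene for CD73 was therefore at a high level in WT cells before hypoxia, and no increase with hypoxia was seen.

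ADORA2B (ENSG00000170425, chromosome 17, 15944917 to 15975746, plus strand), the low-affinity adenosine receptor, was likewise even across the groups. It was at 80.8, 83.2, 82.6 and 79.1 CPM in WT normoxia, 74.1, 91.8, 79.6 and 80.5 CPM in WT hypoxia, and 92.3, 81.0, 92.3 and 82.4 CPM in CCAR2 KO. The hypoxic libraries spread to both sides of the normoxic ones. The log2 fold change was -0.0063 under hypoxia (standard error 0.0641, edgeR adjusted p = 0.959) and 0.095 in KO cells (standard error 0.0484, edgeR adjusted p = 0.169), and the sign of the first turned with the setting. Of the other adenosine receptors, ADORA1 was at 21.1 CPM in WT normoxia, 17.9 in WT hypoxia and 21.5 in CCAR2 KO and was not called in any comparison. ADORA2A was uneven within groups, from 0.0623 to 0.943 CPM in WT normoxia, and it was called lower in KO than in hypoxic WT cells (-3.35, edgeR adjusted p = 0.00327), with overlapping libraries. ADORA3 was at 0.0647 CPM or less.

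**Figure D3:**
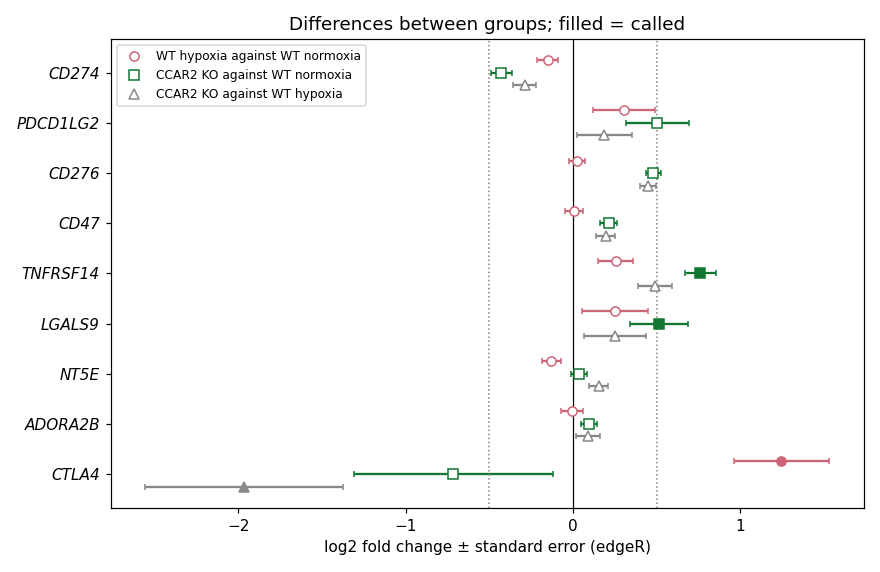
Log2 fold change with its standard error for each of the 9 genes in 3 comparisons, with filled symbols for calls and dotted lines at 0.5 in either direction. TNFRSF14 and LGALS9 pass the line in KO cells, CD276 (0.48) and CD274 (-0.43) stop short of it, and CTLA4 is called higher under hypoxia and lower in the direct comparison.

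Other genes of the adenosine route were read beside these. Of 25 other adenosine pathway genes, 21 were tested in KO cells, where 5 were called higher and 1 lower, and 20 under hypoxia, where 1 was called higher and 1 lower. These are 28.6% and 10% of the genes tested, against 9.67% and 7.26% of all genes. Only 18 genes were tested in both contrasts, so the shares cover different genes. The filter can pass a low gene through the 1 group where it is high, which can raise such a share. The list's median log2 fold change was -0.048 in KO cells and -0.10 under hypoxia. ENPP1, an ectoenzyme that makes AMP from ATP, was at 41.0 to 46.7 CPM in WT normoxia and 127 to 153 CPM in CCAR2 KO, at a log2 fold change of 1.69 (standard error 0.0637, edgeR adjusted p = 7.14e-09). In WT hypoxia it averaged 33.1 CPM, against 43.1 in WT normoxia, and was not called. ENTPD3, a relative of ENTPD1, rose in KO cells (1.09, standard error 0.0975) and fell under hypoxia (-0.85, standard error 0.162), and the KO and hypoxic libraries differed by 1.93 (edgeR adjusted p = 2.25e-06). The other 3 called higher in KO cells, ENPP3, CD38 and ACP3, averaged under 1 CPM and are named after their values were seen.

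ENTPD1, the enzyme just before NT5E in the route, was at 7.56 to 22 CPM in WT normoxia, 8.05 to 19.3 in WT hypoxia and 5.71 to 19.1 in CCAR2 KO, with 1 library far above the others in each group and no call. ADA, which removes adenosine, rose under hypoxia (0.51, standard error 0.157, edgeR adjusted p = 0.0362), a call that was lost with WT normoxia replicates 3 or 4 or WT hypoxia replicates 2, 3 or 4 left out. NT5C, a nucleotidase of the cytosol, fell in KO cells (-0.50, standard error 0.0855, edgeR adjusted p = 0.000789) at the edge of the threshold, and 0 genes of the list were called lower without WT normoxia replicates 2 or 3 or CCAR2 KO replicates 2 or 4. ENPP1 and ENTPD3 were named by the size of their log2 fold changes among the called genes. That these exceed the values of NT5E (0.037) and ADORA2B (0.095) in KO cells follows from this choice. No difference between steps of the route is drawn from it.

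Of 30 other ligands of immune receptors, 19 were tested, and 9 of them were called higher in KO cells and 0 lower by edgeR, DESeq2 and limma-voom alike (47.4%, against 9.67% of all genes in either direction, with 1 lower at an unadjusted p under 0.05). Under hypoxia 2 were called higher and 1 lower (15.8% against 7.26%). This list, like the others, was chosen with earlier results of these data known, so its shares may not be independent of them. The median log2 fold change of the 19 was 0.38 in KO cells and 0.0058 under hypoxia. TNFSF18, the ligand of the costimulatory receptor GITR, was at 1.28 to 1.61 CPM in WT normoxia, 0.612 to 0.803 in WT hypoxia and 4.72 to 6.18 in CCAR2 KO, and it rose in KO cells (1.99, standard error 0.130) and fell under hypoxia (-0.97, standard error 0.168). CD58, the ligand of CD2 on T cells, rose from 12.1 to 13.1 CPM in WT normoxia to 22.5 to 25.4 CPM in CCAR2 KO (0.95, standard error 0.0628). In WT hypoxia CD58 averaged 9.31 CPM and was not called. BTN3A1, a butyrophilin seen by gamma-delta T cells, rose in KO cells (1.03) and under hypoxia (0.67).

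LGALS3, the galectin that binds LAG3, and NECTIN3, a nectin adhesion molecule, also rose in KO cells (0.65 and 0.56), and the other 4 ligands called there (NCR3LG1, SIGLEC15, TNFSF4 and CEACAM1) averaged under 1 CPM and are named after their values were seen. These ligands include activating ones (TNFSF18, CD58) and inhibitory ones (LGALS3), so the count covers signals of either kind. The most abundant of the list, LGALS1 (756 CPM in WT normoxia) and PVR (197 CPM), were not called. CD80 was at 0 in all libraries and CD86 at 0.0192 CPM in 1 of them.

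**Figure D4:**
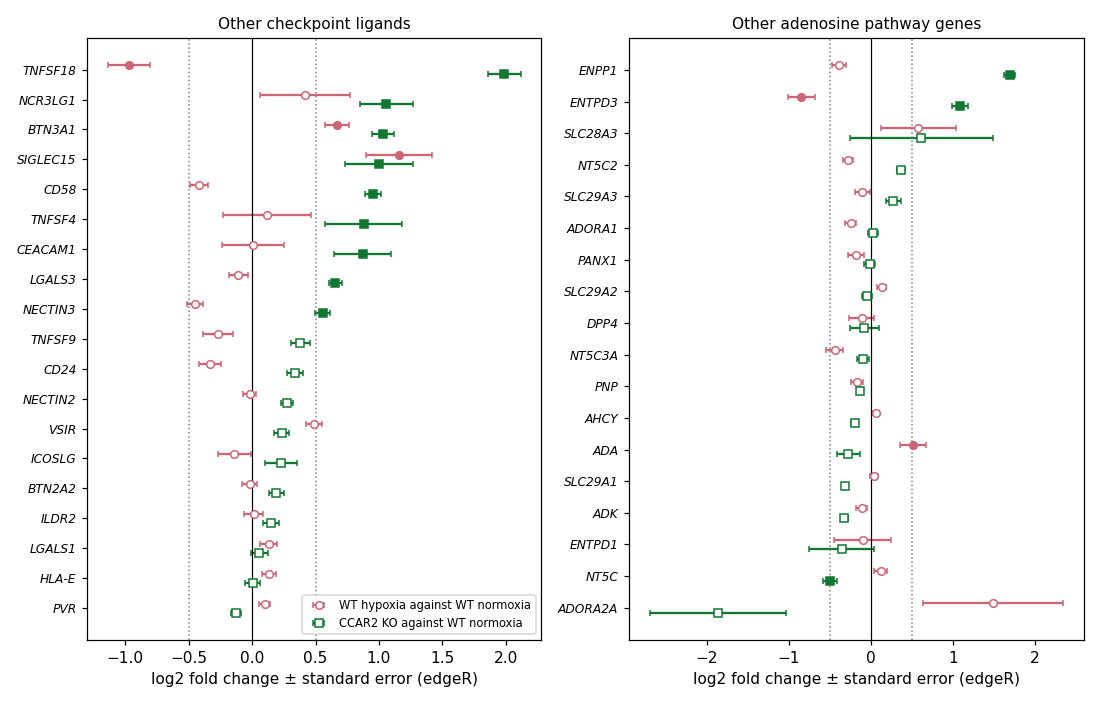
Log2 fold change with its standard error of the 19 other checkpoint ligands and of 18 other adenosine pathway genes tested in both contrasts with WT normoxia, ordered by the value in KO cells, with filled symbols for calls. TNFSF18 and ENTPD3 are called on opposite sides of 0 in the 2 contrasts, and ENPP1 (1.69) and TNFSF18 (1.99) lead in KO cells. ENPP1, CD58, NECTIN3 and LGALS3, called higher in KO cells, also had lower mean CPM under hypoxia than in WT normoxia, without a call there.

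CTLA4 (ENSG00000163599, chromosome 2, 203867771 to 203873965, plus strand) was called under hypoxia, at a very low level. Its estimated counts were 36, 26, 39 and 27 in WT normoxia, 29, 44, 77 and 63 in WT hypoxia, and 15, 0, 23 and 20 in CCAR2 KO. On the CPM scale these were 0.200, 0.145, 0.187 and 0.177, then 0.375, 0.539, 0.468 and 0.319, and then 0.109, 0, 0.149 and 0.152. All hypoxic libraries were above all others. Of all genes tested, 13.7% were likewise higher under hypoxia than in WT normoxia without overlap, and 17.8% were lower in KO than in hypoxic WT cells. For CTLA4, 3 of the 4 KO libraries, of which 2 overlapped with the WT normoxia range, held a small count. The library with no count, CCAR2 KO replicate 2, had the lowest sum of the 12.

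The log2 fold change of CTLA4 under hypoxia was 1.25 (standard error 0.286, edgeR adjusted p = 0.00919), a level 2.37 times that of WT normoxia. In KO cells it was -0.72 (standard error 0.596, edgeR adjusted p = 0.420), and without CCAR2 KO replicate 2 it was -0.38. KO cells were lower than hypoxic WT cells by a log2 fold change of -1.97 (standard error 0.591, edgeR adjusted p = 0.0227), and this call was lost without WT hypoxia replicate 3 (edgeR adjusted p = 0.05829) or CCAR2 KO replicate 1 (edgeR adjusted p = 0.05835). With all 12 libraries in one fit, the hypoxia call was lost too (adjusted p = 0.0836).

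CTLA4 is a gene of T cells, so markers of such cells were read beside it. PTPRC, the pan-leukocyte marker, was at 0.205 CPM in WT normoxia, 0.0968 in WT hypoxia and 0.0634 in CCAR2 KO on average, and CD2 was at 0 throughout. CD3D averaged 0.0146, 0.0481 and 0 CPM in the same order, and FOXP3, the factor of regulatory T cells, 0.0327, 0.145 and 0.126 CPM. PTPRC was lower under hypoxia, where CTLA4 was highest, while CD3D and FOXP3 averaged highest there. The list also holds CD3E, CD3G, CD4, CD8A and CD8B, whose group means are not given here. The markers' sum, made up mostly of CD8A, was 3.5 to 4.09 CPM in WT normoxia and 3.87 to 4.83 in WT hypoxia. In CCAR2 KO this sum was 3.92 to 5.88 CPM. Of the 19 immune markers 7 were tested under hypoxia, with 0 called by edgeR or DESeq2, 1 by limma-voom and 1 at an unadjusted p under 0.05, and 8 in KO cells, where GNLY, CD14 and CSF1R were called higher at 0.230, 0.939 and 0.751 CPM (37.5% of the 8 against 9.67% of all genes), named after their values were seen. Their part in the CTLA4 values, or in the ligands higher in KO cells, was not tested. In bulk RNA, fewer cells with a transcript and less of it per cell cannot be told apart.

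Among the 14 other receptors of checkpoint ligands, 5 were tested under hypoxia, with 0 called by edgeR, DESeq2 or limma-voom and 1 at an unadjusted p under 0.05, and 6 in KO cells, with 1 called higher and 1 lower (33.3% against 9.67% of all genes). CD96, a receptor of lymphocytes for PVR, was at 0.798 to 1.10 CPM in WT normoxia, 0.392 to 0.945 in WT hypoxia and 6.99 to 8.48 in CCAR2 KO, a log2 fold change of 3.11 in KO cells (standard error 0.128, edgeR adjusted p = 1.42e-08). It was the receptor called higher there, beside SIRPA as the receptor called lower. TIGIT was at 0 in all libraries and CD28 reached at most 0.110 CPM. LAG3 was at 1.43 to 2.21 CPM in WT normoxia and 1.25 to 2.47 in CCAR2 KO and was not called. CTLA4 and CD96, both known from lymphocytes, thus had their highest libraries in different groups.

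Genes with the profile most like that of each called gene were found by the distance between 12 mean-centred log2 CPM values among 13197 expressed genes. TNFRSF14 was nearest to LINC01002 (distance 0.304) and to the potassium channel gene KCNN4 (0.311), whose log2 fold changes in KO cells were 0.77 and 0.69. LGALS9 was nearest to ACP6 (0.541) and RGS9 (0.566). The nearest to CTLA4, the calcium channel subunit gene CACNG4 (2.39) and LINC02614 (2.42), lay farther from it than these.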

How the data were processed

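Per the study's methods, the authors removed adapter, poly-N and low-quality reads, aligned paired-end reads with Hisat2 and quantified them with StringTie, whereas the submitters' processing notes name HISAT2, SAMtools and featureCounts. The genome build and annotation are not given in the sources used here. What the authors deposited are expected counts per gene as whole numbers, without scaling to library size. A value of 4 was more frequent than 3 or 5 in each library, and why was not tested, so a sum is not a number of reads. Low counts limit CTLA4, LGALS9 and PDCD1LG2, among others.

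The 8 libraries of 2 groups entered each fit, across the whole table, with edgeR 4.0.16 (R 4.3.3) using TMM factors, filterByExpr and the quasi-likelihood test with Benjamini-Hochberg adjustment over all genes tested. All 9 genes passed the filter in every comparison. In the other lists the genes tested could differ between comparisons, since a low gene can pass through the group where it is high. The standard error is the log2 fold change divided by the root of its F statistic. CPM use TMM factors over the 12 libraries, and log2 CPM a prior count of 2. A two-sided exact permutation test of single genes, which cannot go below 0.0286 with 4 libraries against 4, gave that value for each of the 9 genes whose groups did not overlap. The fits were tested on simulated data.

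The 9 genes and the lists of related genes were chosen with earlier results of these data known. Of each list, genes were named when called in any comparison with a mean of at least 1 CPM over the 12 libraries, at most the 4 largest log2 fold changes a comparison, together with the receptor or enzyme each of the 9 genes needs, the targeted gene and hypoxia targets, and the 2 genes nearest in profile. Of the 60664 identifiers, 40609 carry a symbol and 58396 are in GENCODE 29 (GRCh38), which gave positions and exon lengths. The alternatives changed the tool (DESeq2 1.42.0 or limma-voom of limma 3.58.1), the normalization (RLE or upper quartile), the filter (none, or 10 counts or more in all libraries), the libraries (all 12 together, or each left out in turn), the thresholds (adjusted p without a fold limit, or a log2 fold change of 1 or more), the scale (counts divided by 4) and the design (a replicate block).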

Additional observations from a re-analysis of the deposited data

Results flagged for a closer look

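CD274 in WT normoxia replicate 1 was at 54.4 CPM, against 48.4 to 49.0 CPM in the other 3 libraries of its group, a gap of 0.896 of the group's range. HIF1A in the same library was at 282 CPM, against 255 to 258 CPM, a gap of 0.881. Both gaps are above Dixon's critical value for 4 libraries. In all, 105 groups of 4 libraries (35 genes in 3 groups) were examined and 2 stood out, where chance gives about 5.25.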

How the results depend on the processing

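Counts of the 9 genes rested on the fold threshold. By the adjusted p alone, 4 were higher and 1 lower in KO cells, and 3 were higher and 2 lower in KO than in hypoxic WT cells, while the genes called in all came to 5127 under hypoxia, 6506 in KO cells and 7390 between KO and hypoxic WT cells. With a log2 fold change of 1 or more required, 0 of the 9 were called in KO cells, and 487, 775 and 1219 genes in all. Without a filter, 1 of the 9 was called higher in KO cells, since LGALS9 was lost (adjusted p = 0.110). With all 12 libraries in one fit, 0 were called under hypoxia, and LGALS9 in KO cells had an adjusted p of 0.0525. With at least 10 counts in every library, 0 were lower in KO than in hypoxic WT cells, because CTLA4 was not tested. Leaving out each library in turn, the genes called ranged from 1308 to 1843 under hypoxia, 1862 to 2097 in KO cells and 2891 to 3200 between KO and hypoxic WT cells, and of the 9 genes 1 to 3 were higher in KO cells, 0 to 1 higher and 0 to 1 lower in KO than in hypoxic WT cells, and 1 higher under hypoxia throughout. PDCD1LG2 became called in KO cells with at least 10 counts in every library (adjusted p = 0.0479) and in the fit of 12 libraries (adjusted p = 0.0494). Signs turned for 3 values near 0. For ADORA2B under hypoxia the log2 fold change was 0.044 with upper-quartile normalization, 0.010 with at least 10 counts, 0.0015 in the fit of 12 libraries and 0.015 with counts divided by 4, and it ranged from -0.073 to 0.037 with a library left out. For CD47 under hypoxia it was -0.015 without a filter and ranged from -0.024 to 0.039 with a library left out, and for NT5E in KO cells it ranged from -0.0027 to 0.060. The causes were not tested. Libraries with the same replicate number deviated with correlations between -0.0249 and 0.0651, so no pairing was seen across all genes. Pairing in single genes was not tested. In KO cells a replicate block lowered the standard error of CD47 from 0.0506 to 0.0302 and raised that of PDCD1LG2 from 0.188 to 0.207. A replicate block gave 1507, 1996 and 3091 genes called in the 3 comparisons, against 1582, 2070 and 3165 without it, and changed no call among the 9 genes.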
